A study of Drosophila melanogaster with 2 samples.

Results

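The genes described here encode the subunits of the vacuolar H+-ATPase (V-ATPase). They were taken by name, as every protein-coding gene whose symbol begins with Vha in the Ensembl annotation of the fly genome. The choice was made with earlier results of these data known. The name rule gave 33 of 13968 protein-coding genes, 20 for the membrane sector V0 and 13 for the cytosolic sector V1. They were examined in a chromatin immunoprecipitation experiment with sequencing (ChIP-seq) on transgenic Drosophila melanogaster, in which the protein CG7372, named Phs in the annotation, carried an eGFP tag and was precipitated with an antibody to GFP. There was 1 group, embryos of the CG7372-GFP strain aged 0 to 24 h and taken whole, in 2 biological replicates. All tissues and stages of embryogenesis are mixed in such a sample, the labels do not say whether untagged CG7372 was still present, and there was no second condition to compare. The files hold peaks and no reads, so sequencing depth is unknown.

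The V-ATPase is a rotary proton pump. Its V1 head burns ATP, the central stalk turns, and the ring of proteolipids in V0 carries protons across the membrane, which acidifies lysosomes, endosomes and secretory vesicles and energises epithelia such as the fly's Malpighian tubule. Many subunits have several gene copies in flies, usually a copy used in most tissues and further copies with narrower use. In flies and mammals the pump also takes part in nutrient sensing by the kinase mTor at the lysosome, and factors of the MiT family (Mitf in flies, TFEB in mammals) switch on V-ATPase and lysosome genes through E-box elements.

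A gene was called bound where the summit of a peak, its highest point, lay within 500 bp of any of the gene's transcription start sites (TSS). The peaks were those of the conservative thresholded list of the whole series, in which the irreproducible discovery rate (IDR) is 0.01 or lower. By this rule 10 of the 33 Vha genes (30.3%) were bound, against 2330 of all 13968 protein-coding genes (16.7%). The bound genes were Vha100-1, Vha100-2, Vha16-1, Vha16-5 and VhaM9.7-b of V0 and Vha68-1, Vha44, Vha36-1, Vha26 and Vha13 of V1. Each had exactly 1 summit in reach, and the 10 summits were all different. These are counts over a gene family picked by name, and no test was run on them. No control library was analysed here, so fragments that gather at active promoters in general cannot be told apart from binding of CG7372.

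The DNA under the summits differed from gene to gene. The 7 windows that can be shown are printed here because they hold the summits within 500 bp of a Vha start. Each holds the summit and 50 bases on either side, in the Release 6 (dm6) sequence from RefSeq, read along the strand of the Vha gene, and the capitals mark the summit base and its 5 nearest bases on each side. No window is shown for Vha16-1, Vha36-1 and Vha44. In order, the windows lie at chr2L:10737269-10737369 (minus strand), chr2L:13004183-13004283 (minus), chr3L:21539476-21539576 (plus), chr3R:18397212-18397312 (minus), chr3R:29130864-29130964 (plus), chr3R:5591542-5591642 (plus) and chr3R:19644432-19644532 (minus).
Vha16-5: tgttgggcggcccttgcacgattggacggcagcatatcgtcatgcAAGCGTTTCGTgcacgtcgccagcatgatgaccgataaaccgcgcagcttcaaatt
Vha68-1: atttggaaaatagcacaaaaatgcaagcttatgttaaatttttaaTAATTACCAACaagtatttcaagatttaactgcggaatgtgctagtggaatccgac
VhaM9.7-b: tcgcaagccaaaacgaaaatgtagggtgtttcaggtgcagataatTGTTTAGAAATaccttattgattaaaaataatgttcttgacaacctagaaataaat
Vha100-2: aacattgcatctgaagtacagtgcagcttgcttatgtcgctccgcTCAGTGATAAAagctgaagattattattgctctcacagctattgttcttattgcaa
Vha100-1: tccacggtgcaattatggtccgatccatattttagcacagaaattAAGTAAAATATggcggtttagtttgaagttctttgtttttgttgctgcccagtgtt
Vha26: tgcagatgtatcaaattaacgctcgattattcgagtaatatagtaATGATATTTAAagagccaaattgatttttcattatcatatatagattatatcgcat
Vha13: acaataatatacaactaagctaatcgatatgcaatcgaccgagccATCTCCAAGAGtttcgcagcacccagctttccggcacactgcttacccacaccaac
Their A and T content ran between 44.6% at Vha16-5 and 74.3% at Vha26. None of the 10 summit windows of the bound genes, the 3 not shown included, held the word CGTAT on either strand. It was present at 18.2% of the 1820 summits within 500 bp of a protein-coding TSS, the class to which these 10 belong, and at 1414 of all 4593 summits (30.8%).

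Nearly all bound Vha genes shared their promoter with a neighbour read in the opposite direction. Of the 33 genes, 14 (42.4%) were divergent, meaning that a protein-coding gene on the other strand started within 1000 bp and was read away from them, against 5052 of all 13968 (36.2%). Of these 14 Vha genes 9 (64.3%) were bound, against 30.1% of all divergent protein-coding genes. Of the 19 other Vha genes 1 (5.26%), Vha16-1, was bound, against 9.07% of all other protein-coding genes. A summit between a pair of start sites cannot be given to either gene from these files. At 8 of the 10 genes a protein-coding neighbour also had a TSS within 500 bp of the summit, and at 6 of these 8 the summit lay nearer to the start of the neighbour than to that of the Vha gene.

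**Figure D1:**
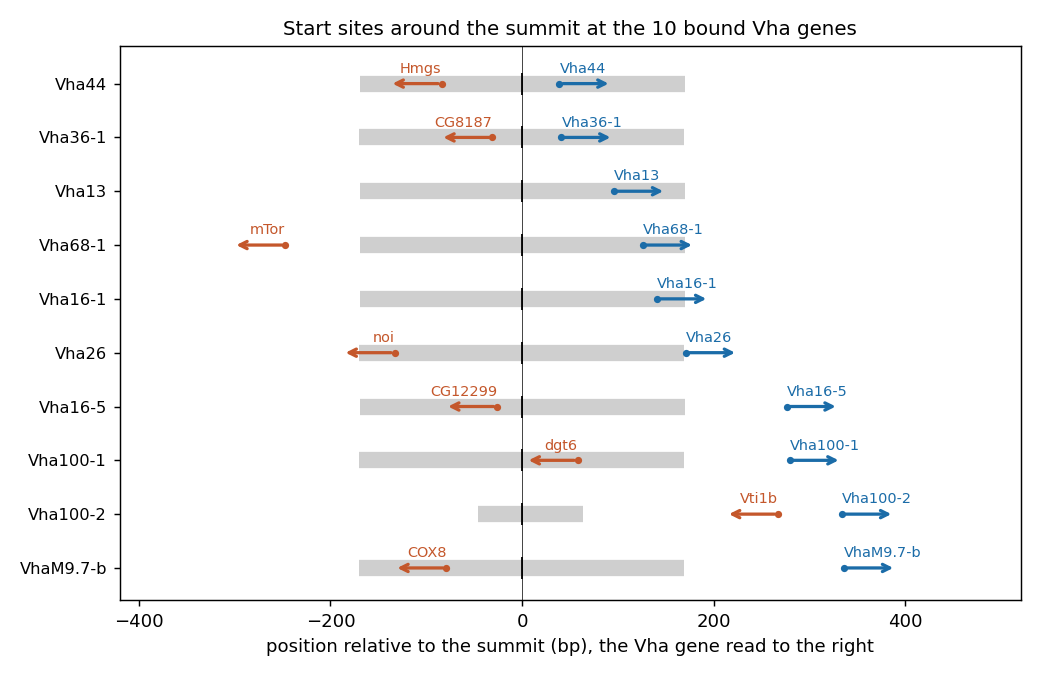
Start sites around the summit at the 10 bound Vha genes, in bp along the direction of the Vha gene. The black tick marks the summit, the grey bar the peak, blue arrows the start and direction of the Vha gene and orange arrows those of a protein-coding neighbour within 500 bp. Every Vha gene starts to the right of its summit, 39 to 336 bp away, and 8 of the 10 have a neighbour that is read to the left.

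All 10 summits lay upstream of the Vha start, at a median of 156 bp from it, while 2027 of the 2330 bound protein-coding genes (87.0%) had their strongest summit upstream and the median distance was 148 bp. The map of start sites shows the neighbours. The summit of Vha44, which encodes the C subunit that links V1 to V0, lay 39 bp from its start at 2R:16336676 and 84 bp from a start of Hmgs, a gene for HMG-CoA synthase, inside a 5′ UTR exon of a longer Hmgs transcript. The summit of Vha36-1 was 41 bp from its start and 31 bp from that of CG8187. The summit of Vha26 was 171 bp from its start and 133 bp from that of noi, a splicing factor gene. At VhaM9.7-b, Vha16-5 and Vha100-1 the Vha start was 336, 276 and 279 bp away, in that order, and the neighbours COX8, a gene for a cytochrome c oxidase subunit, CG12299 and dgt6, a gene for a subunit of the augmin complex, were 79, 26 and 58 bp away. The Vha100-1 summit fell in the 5′ UTR of dgt6.

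Among the 4 summits nearer to a Vha start, that of Vha68-1 stood between Vha68-1 and mTor. It lay at 2L:13004233, 126 bp upstream of Vha68-1, a copy of the catalytic A subunit, and 247 bp upstream of mTor, the nutrient-sensing kinase that works with the V-ATPase at the lysosome. Vha13, which encodes the G subunit of the peripheral stalks, and Vha16-1, which encodes the proteolipid of the rotor ring, were the bound genes with no other gene's start within 500 bp of the summit, at 96 bp (3R:19644482) and 141 bp (2R:6633231) upstream of their starts. The summit at Vha100-2, the a-subunit copy in broad epithelial use, concerned its inner start. It lay at 3R:18397262, in an intron of the longer Vha100-2 transcript and in the 5′ UTR of Vti1b, a SNARE gene, 334 bp from the Vha100-2 start and 267 bp inside Vti1b. The other summits, at Vha36-1, VhaM9.7-b, Vha16-5, Vha16-1, Vha68-1, Vha26 and Vha13, were outside all annotated genes.

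Peak signals are given here as the authors computed them. Their scale is unknown, so they only rank peaks within a list. Ranks run from 1 for the highest signal, over 4593 peaks in the conservative list on the main chromosome arms. The bound Vha genes had a median signal of 94.5 and a range of 40.03 to 169, beside a median of 88.3 over all peaks of that list, and 6 of the 10 were above that median. By comparison, the 2330 bound protein-coding genes had a median of 110 at their strongest peak. The highest Vha signal was at Vha100-2, with 169 and rank 809. Vha16-5 followed with 132 and rank 1230, then VhaM9.7-b with 108 and rank 1695, Vha68-1 with 108 and rank 1699, and Vha16-1 with 100.1 and rank 1890. Vha36-1 had 88.9 and rank 2277, Vha13 had 76.4 and rank 2856, Vha26 had 61.5 and rank 3737, Vha100-1 had 52.9 and rank 4178, and Vha44 had 40.03 and rank 4315. The highest signal in that list was 1992.

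Each replicate has a ranked list of all its candidate peaks and a thresholded list of its own. Both ranked lists held a peak that overlapped the conservative peak at each of the 10 genes. At Vha100-2 the signal was 89.0 in replicate 1 and 80.7 in replicate 2, and at Vha16-5 it was 67.3 and 69.5. At Vha68-1 it was 62.2 in replicate 1 and 44.3 in replicate 2, and at VhaM9.7-b 54.7 and 53.5. These 4 genes were bound by the thresholded list of each replicate, and their replicate summits lay within 49 bp of the shared one.

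A further 4 genes passed the threshold in 1 replicate. Vha36-1, which encodes the D subunit of the central stalk, had a signal of 62.5 in replicate 1 with the highest IDR score of 1000, and 27.6 in replicate 2 with a score of 413, where 830 is the score at an IDR of 0.01. Vha26, which encodes the E subunit of the peripheral stalks, had 41.1 in replicate 1 (score 880) and 23.9 in replicate 2 (score 77). Those genes passed in replicate 1, while Vha16-1 with 43.7 (score 680) in replicate 1 and 53.7 (score 1000) in replicate 2 and Vha13 with 39.4 (score 812) and 38.6 (score 969) passed in replicate 2.

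Vha100-1, the a-subunit copy known for its role in neurons, and Vha44 passed in neither replicate alone. Vha100-1 had 34.0 in replicate 1 and 23.4 in replicate 2, with scores of 82 and 186, and a score of 893 in the conservative list. Vha44 had 33.9 and 23.7, with scores of 62 and 73, and a score of 903 in the conservative list. The Vha44 summits in replicates 1 and 2 lay 83 and 45 bp from the shared one, in that order. That of replicate 1 was 44 bp downstream of the start. Replicate 2 had a stronger ranked peak elsewhere within 500 bp of a Vha44 start, with a signal of 35.9, and this value is the one plotted for Vha44. Their calls come from the comparison of the replicates. The peaks of Vha100-1, Vha44 and VhaM9.7-b are also not in the other thresholded list of the whole series, which holds 4781 peaks. Of the 10 bound Vha genes 40% were bound by both thresholded replicate lists, 40% by 1 and 20% by neither, while of the 2330 bound protein-coding genes 58.9% were bound by both, 22.96% by 1 and 18.2% by neither.

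**Figure D2:**
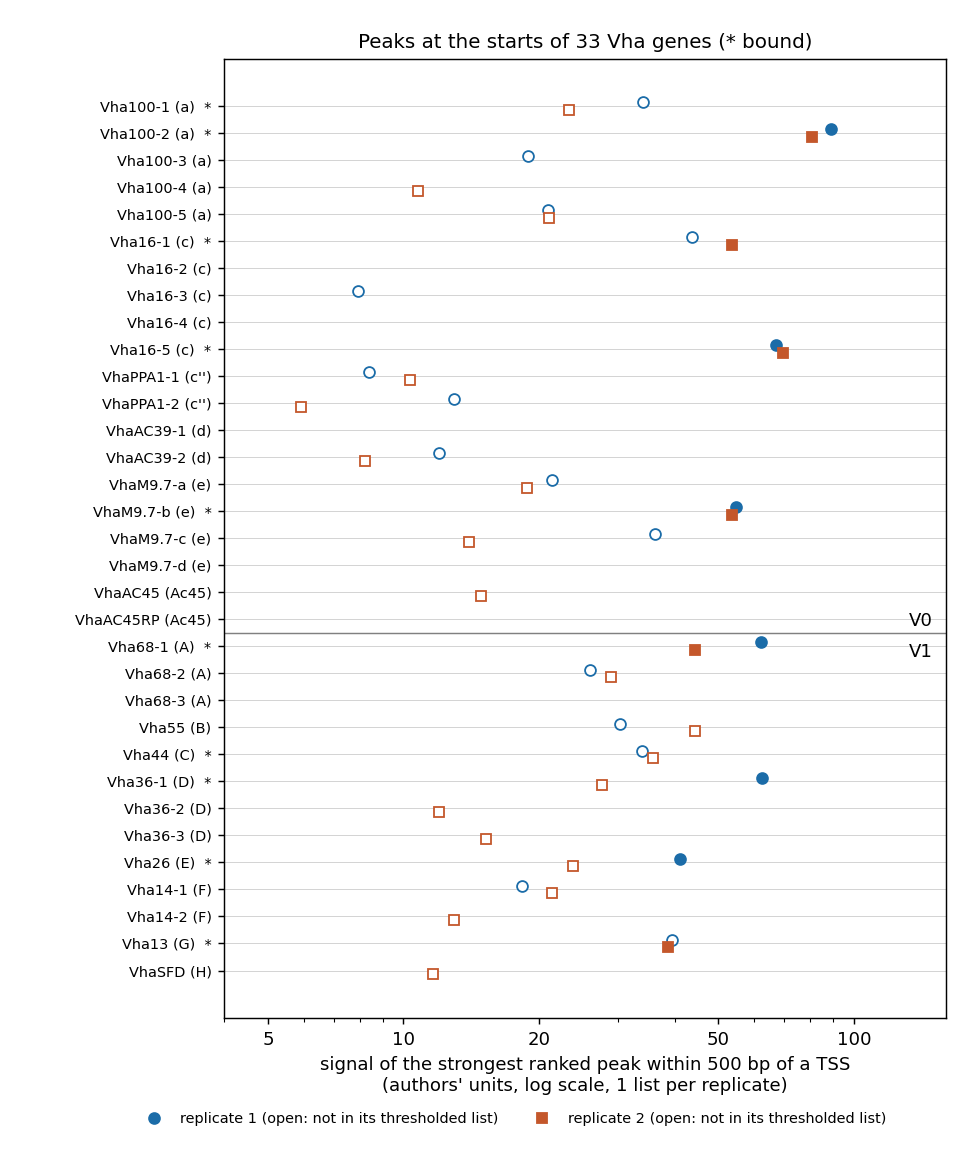
Signal of the strongest ranked peak within 500 bp of a TSS of each of the 33 Vha genes, in the authors' units on a log scale, for replicate 1 (circles) and replicate 2 (squares); open symbols are genes not bound in the thresholded list of that replicate, and an asterisk marks a bound gene. Filled symbols in both replicates belong to Vha100-2, Vha16-5, VhaM9.7-b and Vha68-1. A missing symbol means no peak in reach in the ranked list of that replicate.

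The order of the V0 and V1 sectors changed with the setting. Of the 20 V0 genes 5 (25%) were bound and of the 13 V1 genes 5 (38.5%), against 16.7% of all protein-coding genes. Among the copies in broad use 3 of 6 V0 genes and 4 of 8 V1 genes were bound, among the further copies 2 of 14 and 1 of 5. Among the divergent genes it was 4 of 6 in V0 and 5 of 8 in V1, against 30.1% of all divergent protein-coding genes. Among the others it was 1 of 14 and 0 of 5, against 9.07%. The part of this makeup in the sector difference was not tested. Counted as subunit types, 3 of 6 in V0 (a, c and e) and 5 of 8 in V1 (A, C, D, E and G) had at least 1 bound copy. The types with none were c″, d and Ac45 in V0 and B, F and H in V1. Types with more copies, such as a and c with 5 each, have more chances to count. No share over all genes was computed for this count of types. The V1 share was the higher in 9 of 11 alternative settings and the V0 share in the other two, with 20% of V0 and 15.4% of V1 both with the thresholded list of replicate 2, against 13.04% of all protein-coding genes, and with the peaks above the median signal, against 10.9%. With the TSS distance at 200 bp, 1 of 20 V0 genes (5%) and 5 of 13 V1 genes (38.5%) were bound, against 11.6% of all protein-coding genes, since the V0 summits of Vha100-1, Vha100-2, Vha16-5 and VhaM9.7-b lay over 200 bp from the Vha start.

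The copies in broad use were bound more often than the further paralogues in this count. Which copy is broadly used was taken from general knowledge of the fly genes and not measured here. Of the 14 broad copies 7 (50%) were bound and of the 19 further paralogues 3 (15.8%), against 16.7% of all protein-coding genes. The broad copies include the only genes of their subunits, which have no further paralogue to compare. Of these Vha44, Vha26 and Vha13 were bound and Vha55 and VhaSFD were not. For the subunits with further copies, the broad copies Vha100-2, Vha16-1, VhaM9.7-b and Vha36-1 were bound. The broad copies VhaAC45, VhaPPA1-1, VhaAC39-1, Vha68-2 and Vha14-1 were not. The share of the broad copies was the higher in 11 of 11 alternative settings, among them 28.6% and 10.5% with the thresholded list of either replicate, where 11.8% of all protein-coding genes were bound by the list of replicate 1 and 13.04% by that of replicate 2. These settings reuse the same peaks and genes, so they are not separate evidence. The copies also differed in promoter arrangement, since 9 of 14 broad copies and 5 of 19 further paralogues were divergent. Within the divergent genes 6 of 9 broad copies (66.7%) and 3 of 5 further paralogues (60.0%) were bound, against 30.1% of all divergent protein-coding genes. Within the others it was 1 of 5 broad copies and 0 of 14 further paralogues, against 9.07%. The part of the arrangement in the difference between the copies was not tested.

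**Figure D3:**
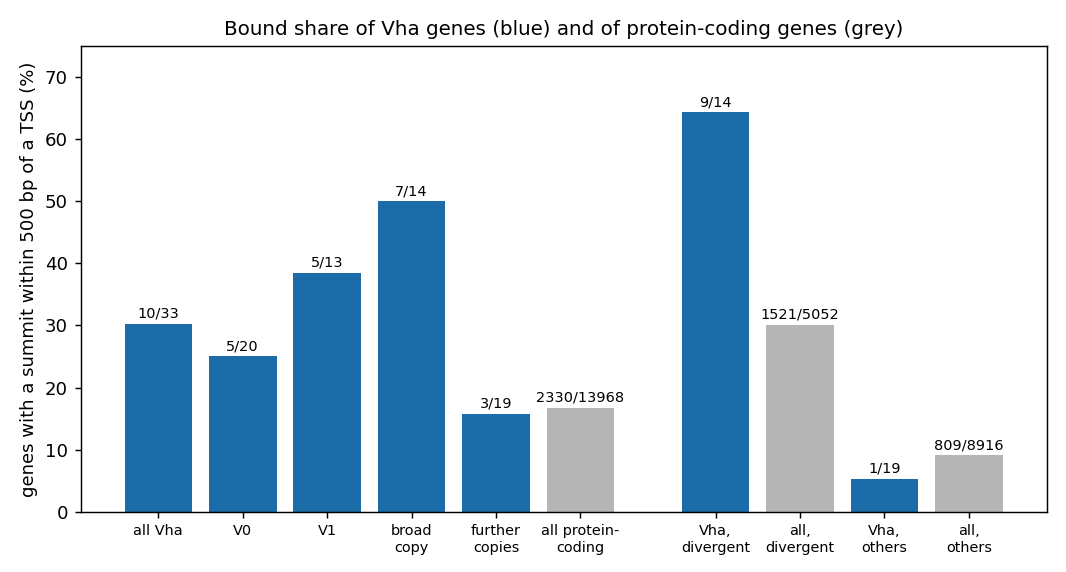
Percentage of genes with a summit within 500 bp of a TSS, for Vha genes and their groups (blue) and for protein-coding genes (grey), with the number bound and the number of genes above each bar. Divergent Vha genes reached 9 of 14 beside 1521 of 5052 divergent protein-coding genes, and the other Vha genes 1 of 19 beside 809 of 8916.

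The families of copies differed from each other. Of the subunits with further copies, e and D had only the broad copy bound, a and c had it and a further paralogue. The A subunit had only a further paralogue bound, and Ac45, c″, d and F had no bound copy. The protein identities given here compare each copy with the broad copy over the aligned residues of the longest annotated coding sequence. In the V0 a subunit, the stator through which protons pass, Vha100-2 and Vha100-1 were bound and Vha100-3, Vha100-4 and Vha100-5 were not, although Vha100-4 (66.1% identical to Vha100-2) and Vha100-5 (68.0%) were closer to Vha100-2 than Vha100-1 was (60.9%). Vha100-4 lies 517 bp from Vha100-2 in the same orientation, and its nearest summit was the one at Vha100-2, 7457 bp away. In the proteolipid c, Vha16-1 and Vha16-5 (69.2% identical) were bound and Vha16-2 (69.4%), Vha16-3 (84.1%) and Vha16-4 (69.0%) were not. Vha16-3 and Vha16-2, 985 bp apart, shared a nearest summit at 9846 and 8274 bp. In the small membrane subunit e, VhaM9.7-b was bound and VhaM9.7-a, VhaM9.7-c and VhaM9.7-d, at 42.0 to 46.4% identity, were not.

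The remaining V0 genes had no summit in reach. VhaPPA1-1 and VhaPPA1-2, the copies of the second proteolipid c″, had their nearest summit at 5639 and 1855 bp. VhaAC39-1 and VhaAC39-2, the copies of the d subunit that couples the ring to the stalk, had theirs at 8787 and 11219 bp. The accessory protein gene VhaAC45 was 23835 bp from the nearest summit and VhaAC45RP 4399 bp.

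In V1 the catalytic A subunit had a further paralogue bound and its broad copy not bound. The bound gene was Vha68-1, the further paralogue with 91.9% protein identity to Vha68-2, while the broad copy Vha68-2 and Vha68-3 (75.04%) were not bound. All 3 lie close together on 2L, with 178 bp between Vha68-2 and Vha68-3 and 19476 bp between Vha68-3 and Vha68-1. Vha68-2 was the unbound gene just outside the threshold, with a ranked peak of the replicate comparison at a score of 814, where 830 was needed, and signals of 25.9 in replicate 1 and 28.9 in replicate 2. In the D subunit Vha36-1 was bound, and Vha36-2 (40.4% identity) and Vha36-3 (84.96%) were not. Neither copy of the F subunit was bound. Vha14-1 had a strong summit, with a signal of 382, at 850 bp downstream of its TSS. That summit lay past the downstream end of the gene, which is 659 bp long, and within 500 bp of a start of Gmppa. By it Vha14-1 was bound at a TSS distance of 1000 bp, while Vha14-2 was 21928 bp from the nearest summit. Among the subunits with 1 gene, Vha44 (C), Vha26 (E) and Vha13 (G) were bound, and Vha55 (B) and VhaSFD (H) were not.

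Vha55, which encodes the B subunit that alternates with A in the head, had a peak near its start that the thresholded lists leave out. The ranked list of the replicate comparison gives a peak with its summit at 3R:12627866, between Vha55 and its divergent neighbour Snx3, a sorting nexin gene, with a signal of 73.1 and the highest score of 1000. Its signal was 30.2 in replicate 1 (score 44) and 44.4 in replicate 2 (score 1000). It is in no thresholded list, neither that of replicate 2 nor the conservative one. Of the 4675 peaks of this ranked list at a score of 830 or more, 82 are missing from the conservative list, 52 of them on 3R, and the sources used here give no reason. With these peaks counted, 11 of 33 Vha genes (33.3%) were bound and 17.0% of all protein-coding genes.

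The 23 genes not bound had their nearest summit of the list at a median of 8357 bp and between 850 and 63601 bp (Vha100-5). No such distance was computed for other protein-coding genes. Candidate peaks outside the conservative list lay near many of the 23, as near most genes. Not all were weaker than the peaks of bound genes. In the ranked list of the comparison, the highest signals at unbound genes were 73.1 (Vha55), 55.1 (Vha68-2), 45.8 (VhaM9.7-c) and 40.9 (Vha14-1). The bound genes Vha100-1 and Vha44 had 52.9 and 40.03 in the conservative list. A ranked peak within 500 bp of a TSS was found for 11 of the 23 in replicate 1, with signals from 7.91 to 36.2 and a median of 18.9, and for 15 of the 23 in replicate 2, with signals from 5.91 to 44.4 and a median of 13.99. Over all 33 Vha genes it was 21 in replicate 1, against 55.6% of all protein-coding genes, and 25 in replicate 2, against 59.4%. In at least 1 of the replicate lists or the ranked list of their comparison, 20 of the 23 and 30 of all 33 Vha genes had such a peak, against 78.6% of all protein-coding genes. The 3 with none were Vha16-4, VhaM9.7-d and VhaAC45RP.

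Short sequence elements in the promoters, read from 250 bp before to 50 bp after each TSS and on both strands, ranged from rare to common. TCACGTGA, the element known for MiT family factors, was present in 2 of 33 Vha genes (6.06%) and in 28 of all 13968 protein-coding genes (0.200%). The Vha genes were Vha44, where it starts 48 bp upstream of the TSS and is also in the summit window, and Vha68-2, which was not bound. In Vha68-2 the element starts 99 bp upstream of an inner TSS (chr2L:12975292-12975321, plus strand, the element in capitals), while the ranked peak with a score of 814 was at the outer TSS.
Vha68-2: tcaaagctctgTCACGTGAaacgaaagctc
Its core CACGTG, which is part of it, was present in 5 Vha genes (15.2%) and in 5.33% of all genes, and besides those genes these were Vha55, VhaM9.7-d and VhaAC45RP, none of them bound. GGTCACACT, the core of the element of the promoter protein M1BP, was in 3 of the 10 bound Vha genes, Vha100-1, Vha16-1 and Vha26, and in 1 of the 23 others, Vha68-2. At Vha16-1 it lay before the inner TSS, while the summit was at the outer TSS. It was in 9.91% of the 2330 bound protein-coding genes and in 6.77% of all protein-coding genes. TATCGATA, the DNA replication-related element, was in Vha55 and VhaSFD and in 10.2% of all genes.

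TATAAA was in 18 Vha genes (54.5%) and 51.3% of all, and GAGAGA in 5 (15.2%) and 17.1% of all. The words CGTATAC and CATACGCC, which hold CGTAT on the printed and on the opposite strand in that order, were in 1 Vha promoter each, VhaM9.7-a and Vha44, against 2.08% and 0.623% of all promoters. In Vha44 the word lay before the inner TSS, while the summit was at the outer TSS. CGTAT alone was in 9 Vha genes (27.3%) and 35.1% of all. CGTATAC and CATACGCC were at 0 of the 10 summits of Vha genes. At the 1820 summits near protein-coding starts CGTATAC was present at 5.05% and CATACGCC at 2.80%, and over all 4593 summits the shares were 10.4% and 9.01%. A matching word is a description of the letters and not a binding site, and these words were chosen with results of the same data known. The promoters of bound and unbound Vha genes had a like base composition, with medians of 63.0% and 63.5% A and T.

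Genes that work with the V-ATPase were bound to a varying degree. Many of them were divergent, 4 of 7 for assembly and regulation and 8 of 15 for nutrient sensing and autophagy. Over all protein-coding genes 36.2% were divergent, and 30.1% of the divergent and 9.07% of the other genes were bound. Of 7 genes for assembly and regulation 3 were bound, against 16.7% of all protein-coding genes: CG7071 (signal 315, summit shared with JMJD6 and Muted), mtd, a gene with a TLDc domain (293), and CG5969 (81.3, shared with CG32428). Of 15 genes around nutrient sensing and autophagy 5 (33.3%) were bound, against the same 16.7%. Lamtor3, which encodes a scaffold for this signalling on the lysosome, had a signal of 705 at a summit shared with fws, the highest of all genes in these lists. The others were mTor at the Vha68-1 summit (108), RagA-B, a GTPase gene (75.9, shared with CG11970), Iml1, a subunit gene of the GATOR1 complex (60.9), and bchs (60.2).

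Of 24 lysosome genes 6 (25%) were bound, against 16.7% of all protein-coding genes, and 12 of the 24 were divergent. They were Vps33B (signal 280, shared with Fur1), Hexo2, a hexosaminidase gene (220.0), CtsL1, a cathepsin gene (117, shared with Rpn13), car, a gene of membrane tethering (113, shared with Grip84), Ppt1, a thioesterase gene (80.1, shared with Ogg1), and Rab7, a GTPase gene of late endosomes (65.8, shared with Epp). The F-type ATP synthase is the rotary enzyme of mitochondria and a distant relative of the V-ATPase. Of its 17 genes 3 (17.6%) were bound, a share close to the 16.7% of all protein-coding genes, and 11 of the 17 were divergent. Of all divergent protein-coding genes 30.1% were bound. They were blw, which encodes the alpha subunit (signal 199), ATPsynE (104, shared with Afti) and ATPsynCF6 (71.6, shared with Sec13).

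Several Vha calls depended on how a summit is given to a gene. With each summit given only to the nearest protein-coding TSS, 4 Vha genes were left, Vha68-1, Vha16-1, Vha13 and Vha44, which is 12.1% of 33, against 11.9% of all protein-coding genes. Vha68-1 was bound under each of 11 alternatives, Vha16-1 under 10, Vha13 and Vha36-1 under 9, and Vha100-1 under 4. Vha100-2 was lost where only the most upstream TSS was used, since its summit is at the inner start.

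**Figure D4:**
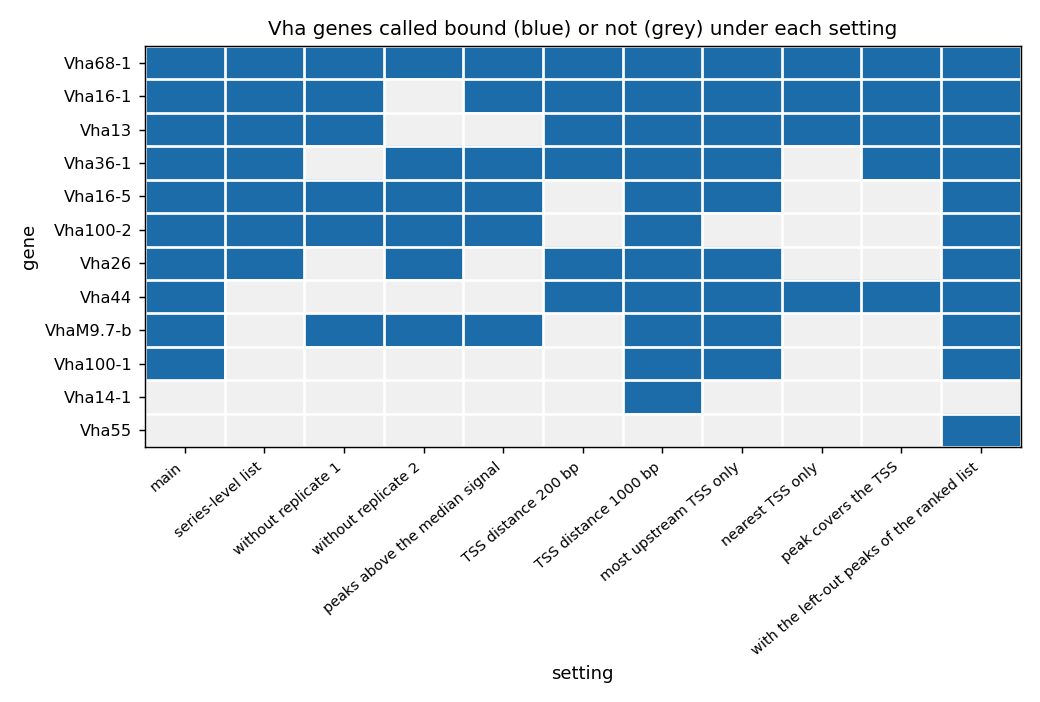
Call of each Vha gene, bound (blue) or not (grey), under the setting of the text (main) and 10 alternatives. The 12 genes bound in at least 1 of these settings are drawn. The list of all ranked peaks is not drawn, where 27 of 33 Vha genes (81.8%) were bound, against 67.8% of all protein-coding genes. Vha68-1 is bound in every column, Vha14-1 only at a TSS distance of 1000 bp, and Vha55 only with the peaks that the thresholded list leaves out.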

How the data were processed

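ChIP-seq peak lists of 2 biological replicates of 1 group were analysed on the dm6 assembly. Per the file headers, the authors derived the lists from alignments with further inputs that are not named. No aligner or peak caller is named there. The deposited signal of each peak is on an unstated scale, and the deposited score was checked against the deposited −log10 of the IDR in the ranked lists (125 times the −log2 of the IDR, at most 1000, to within 1). In the ranked lists, 32 columns were left unused, since nothing names their samples. The ranked list that holds every conservative peak was taken as the list of the replicate comparison.

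Genes and TSS came from Ensembl release 115 (BDGP6.54), without transposable elements, and sequence from RefSeq's Release 6. Summits are column 2 plus column 10, written from base 1. The assignment was tested on simulated data with Python 3.11.15, pandas 2.3.3 and Biopython 1.88, which also aligned the translated coding sequences (BLOSUM62). The members, lists and words were chosen with earlier results of these data known. Every member and every bound gene of a related list is named. Of the related genes, 3 symbols were not in the annotation. The alternatives changed the peak list, the replicate, the TSS distance, the TSS set and the assignment.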

Additional observations from a re-analysis of the deposited data

How the results depend on the processing

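Among 66 recounts of 6 counts under 11 alternatives, 35 stayed within 1.5 times the main count. With the thresholded list of a replicate in place of the conservative list, the lists of both replicates gave 6 Vha genes, 4 broad copies and 2 further paralogues, with 3 to 4 V0 genes, 2 to 3 V1 genes and 1651 to 1821 protein-coding genes. The series-level list left 3 V0 genes. At a TSS distance of 200 bp, 6 Vha genes, 1 V0 gene and 1 further paralogue were bound. With the nearest TSS only, 4 Vha genes, 1 V0 gene, 3 V1 genes, 3 broad copies and 1 further paralogue were bound. Where the peak had to cover the TSS, it was 5 Vha genes, 1 V0 gene, 4 broad copies, 1 further paralogue and 1204 protein-coding genes. Peaks above the median signal left 6 Vha genes, 2 V1 genes, 4 broad copies and 1519 protein-coding genes. All ranked peaks gave 27 Vha genes (81.8%), 15 V0 genes, 12 V1 genes, 13 broad copies, 14 further paralogues and 9476 protein-coding genes (67.8%). The Vha share was above that of all protein-coding genes in each of the 11, by the least with the nearest TSS (12.1% and 11.9%). The count with the left-out peaks was chosen after seeing the data. No paired analysis was possible because there is 1 group. Counts of this size shift with single genes, and depth is unknown.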

Other observations

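The gene Vha100-2 held a second conservative peak between the summit at its inner start and its outer start, so that 2 summits lay within the gene, while the 9 other bound Vha genes had 0 summits within the annotated gene.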
